A study of Rattus norvegicus with 5 samples.

Results

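C5F is 1 of 4 rat hepatocellular carcinoma lines profiled in this series, and 1 array of the 5 analysed here held its RNA. It was chosen by its label alone. It was set against the 3 other lines, C6, N1 and L2, gene by gene, with a normal liver as the reference for what a hepatic gene looks like on this platform. Per the labels, the 4 lines came from liver tumours of male F344 rats given the carcinogens N-nitrosomorpholine and diethylnitrosamine and are listed at 31 weeks of age. The liver came from an untreated male SD rat of 50 weeks. The series describes C5F and C6 as lines of low metastatic potential and N1 and L2 as lines of high metastatic potential. Each line and the liver had 1 array, so no value below has a replicate or an SD, and the differences are those between single arrays. The labels do not say how the RNA samples were drawn from their cultures. Strain, age, carcinogen treatment and growth in culture all differ between the liver and the lines and cannot be told apart in any comparison with liver.

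Hepatocytes make most of the proteins of blood plasma, among them albumin, transferrin, transthyretin, the apolipoproteins that package fat for transport, and the inhibitors and factors of clotting. The fetal liver makes alpha-fetoprotein (Afp), the imprinted RNA H19 and the surface proteoglycan glypican 3 (Gpc3), which fall to low levels after birth and are often found again in liver cancer. Cultured carcinoma cells keep such genes to very different degrees, while genes of the cytoskeleton and of cell adhesion, such as vimentin and annexin A1, are commonly active in cells growing on plastic.

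Signals were quantile normalised, floored and placed on a log2 scale, where 1 unit is a factor of 2 and the floor is 1.34. A spot was called above or near background by the scanner software, and a spot near background gives only a bound. In a fold it was counted at the lowest signal called above background on its array, or at its own signal where higher. Such folds are taken as lower limits and written as at least N-fold. The C5F array had the largest share of spots called above background of the 5. It had 39.2% of its 33849 gene probes above background, against 32.7% to 36.0% on the other lines and 30.6% in liver. Its lowest normalised signal above background, called its detection limit below, was 7.87 against 11.2 to 14.6 elsewhere. With 1 array per line, a more sensitive array and more active genes in C5F cannot be told apart. A named gene was compared where all 4 lines had a usable spot and at least 1 was above background, which held for 4618 of 12198 named genes.

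C5F was at least 4-fold above the highest other line in 28 genes, which is 0.606% of those compared, and at least 4-fold below the lowest other line in 27 genes, or 0.585%. Of the 28, 15 belonged to lists of hepatic or fetal genes, and 13 of these were among the 37 compared members of the lists of secreted proteins, apolipoproteins and oncofetal genes, or 35.1% of those members. The lists were drawn up with earlier results of these data known, so this share is a description. Of the 27, 7 belonged to any list other than those of cell markers, with at most 2 in 1 list. By the same count 16 of the 28 did, and 287 of all 4618 genes compared. By the same rule C6 had 21 genes above and 0 below the other lines, N1 had 43 and 1, and L2 had 35 and 20. By this rule C5F had fewer genes above all others than N1 and L2, and more below all others than any other line. The rule counts a near-background spot at its array's limit, or at its own signal where higher. This limit was lowest in C5F (2.98 on the log2 scale against 3.48 to 3.70), and 13 of the 27 were near background in C5F. By the calls alone the order turned: genes near background in 1 line only numbered 55 for C5F and 129, 139 and 169 for C6, N1 and L2. At 1 signal level for all arrays, genes absent from 1 line only numbered 104 for C5F and 73, 68 and 196 for the other lines in that order. Over all 4618 genes C5F was the highest line in 27.2% and the lowest in 22.1%, and the median of its difference from the middle other line was 0.03 on the log2 scale. With 1 other line left out, the lower count was 53 without N1, 49 without C6 and 38 without L2, since a gene then had fewer lines to pass. Adding an offset of 50 to all signals in place of the floor left 15 genes higher and 9 lower, and keeping irregular spots gave 54 lower.

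**Figure D1:**
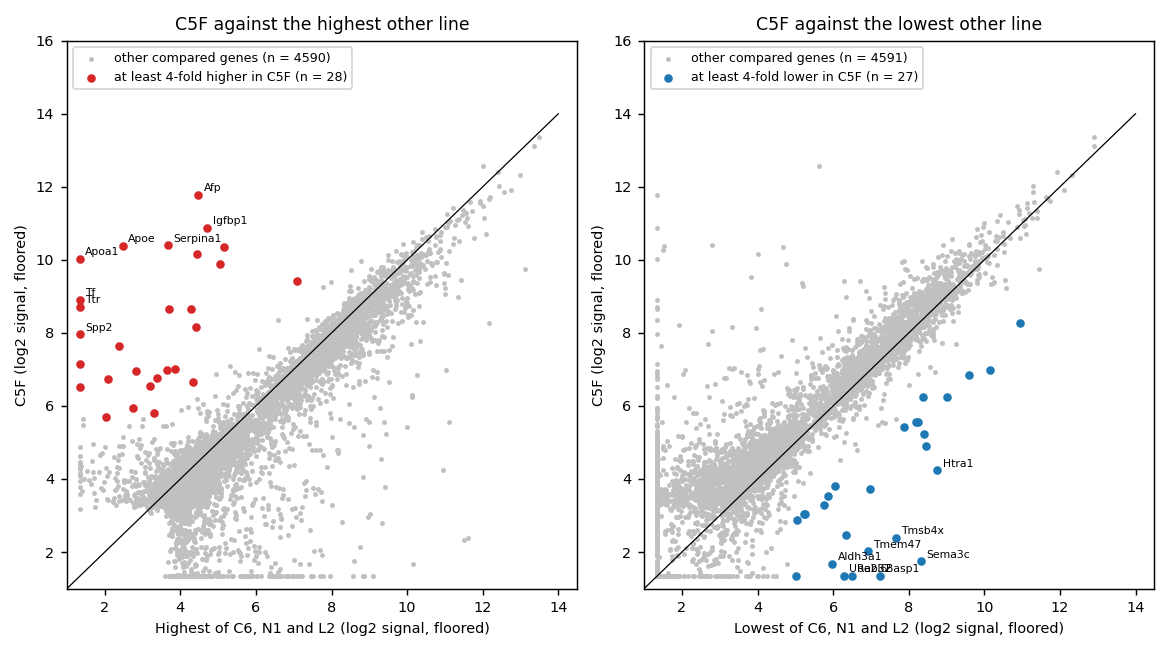
Log2 signal of C5F (vertical axis) against the highest (left) and the lowest (right) of C6, N1 and L2 (horizontal axes) for the 4618 genes compared, 1 array per line, with the line of equality. Coloured points are the 28 genes at least 4-fold higher and the 27 at least 4-fold lower in C5F, and the genes with the widest gaps at their bounds are among those named; Apoa1, Apoe, Tf, Ttr and Afp stand farthest above the line on the left.

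A test of C5F against the mean of the other 3 lines was fitted with limma over 9435 probes. The spread of a probe was measured in the 3 other lines and moderated by limma toward a value common to all probes. For Apoa1, Tf, Ttr, Spp2 and Gc the 3 other lines were all at the floor, with a measured spread of 0. The SE of 0.22 that these genes share came from the moderation alone. It called 0% of probes at an adjusted p of 0.05 (0 higher and 0 lower). The lowest adjusted p was 0.0541, shared by 7 probes, among them those of Apoa1, Tf, Ttr, Spp2, Gc and Sema3c. At an unadjusted p under 0.05 there were 792 probes, or 8.39%, and in 420 of these all 3 other lines were near background, where the floor sets the spread. The number called moved with the settings: it was 1002 higher and 40 lower without the filter on dim probes, and 164 higher and 6 lower with median scaling. An exact test of 1 array against 3 cannot go below a one-sided p of 0.25. The gaps between single arrays are therefore given as measured, with the limma value of a gene only where it is named.

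Of the oncofetal genes, Afp, Gpc3 and H19 were far brighter in C5F than in any other line. They were the 3 of 17 compared list members, or 17.6%, that passed 4-fold, beside 0.606% of all genes. None was lower, and the median member was 0.59 above the middle other line. Afp, the main serum protein of the fetus, had a log2 signal of 7.68 in liver, 11.78 in C5F and 4.47 in L2, and was near background in C6 at 1.97 and in N1 at the floor. C5F was 159-fold above L2, the next line, and 17.2-fold above the liver of the adult rat. The limma difference was 9.19 ± 1.46 (SE) with an adjusted p of 0.18, and L2 lay well above C6 and N1.

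A second Gpc3 probe, above background in liver at 4.62, was near background in all 4 lines. By the probe that stands for the gene, Gpc3 had 10.15 in C5F against 4.0997, 4.43 and 3.9999 in C6, N1 and L2, beside 5.26 in liver. Every array was above background, and the 3 other lines lay close together, while C5F was 52.7-fold above N1 and 29.6-fold above liver (limma difference 5.97 ± 0.30, adjusted p 0.0564). H19, a maternally expressed noncoding RNA, had 9.89 in C5F against 4.79, 4.75 and 5.04 in C6, N1 and L2, with no usable liver spot, which is 28.9-fold above L2 (limma 5.03 ± 0.26, adjusted p 0.0564). Its imprinted neighbour Igf2, a fetal growth factor that is separated from H19 by no coding gene in the RefSeq table, was at the floor and near background on all 5 arrays. Among genes of the list that only C5F showed above background was Cdkn1c, an imprinted inhibitor of the cell cycle, with 4.43 in C5F, the floor in liver and C6, 1.39 in N1 and 2.95 in L2.

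Afp lies directly next to Alb, the gene for albumin, with no annotated gene between them. Their levels went different ways: Alb was at 11.47 in liver and at the floor, near background, in all 4 lines, C5F included. The liver was at least 361-fold above C5F for Alb and 17.2-fold below it for Afp. The promoters of both are shown because these neighbours went different ways, and those of Apom and Gc, which were high in C5F and in liver, because each holds the HNF4 motif CAAAGT, letters read by the HNF4 factors that act on many hepatic promoters. Each is the 250 bases before the RefSeq start on GRCr8, 5′ to 3′ along the gene's strand, with that motif in capitals.
Afp: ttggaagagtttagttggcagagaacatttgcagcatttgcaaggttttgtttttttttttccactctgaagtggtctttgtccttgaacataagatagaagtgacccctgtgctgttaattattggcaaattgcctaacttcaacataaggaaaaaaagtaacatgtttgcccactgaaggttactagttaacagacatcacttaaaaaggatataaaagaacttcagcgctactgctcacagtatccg
Alb: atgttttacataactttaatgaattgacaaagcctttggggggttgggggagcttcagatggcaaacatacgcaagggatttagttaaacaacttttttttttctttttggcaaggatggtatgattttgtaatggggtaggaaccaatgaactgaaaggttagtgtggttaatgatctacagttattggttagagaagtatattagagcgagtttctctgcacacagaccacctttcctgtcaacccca
Apom: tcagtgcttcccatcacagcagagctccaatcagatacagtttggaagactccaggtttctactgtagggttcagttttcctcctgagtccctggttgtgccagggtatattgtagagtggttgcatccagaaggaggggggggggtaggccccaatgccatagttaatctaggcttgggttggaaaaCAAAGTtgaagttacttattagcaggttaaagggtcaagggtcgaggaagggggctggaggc
Gc: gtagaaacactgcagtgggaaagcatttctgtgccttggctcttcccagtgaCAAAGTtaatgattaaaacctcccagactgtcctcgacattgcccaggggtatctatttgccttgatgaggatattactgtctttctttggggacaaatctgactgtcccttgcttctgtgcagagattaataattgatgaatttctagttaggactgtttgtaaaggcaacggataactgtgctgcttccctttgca
They lie at chr14:17875646-17875895 (minus strand), chr14:17906980-17907229 (minus strand), chr20:3695368-3695617 (plus strand) and chr14:18916005-18916254 (plus strand). The HNF4 motif begins 62 bases before the start in Apom and 198 in Gc, and the windows of Afp and Alb do not hold it. Apom and Gc were picked for display after the matches were known.

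The motifs given here, searched on both strands, were CAAAGT for HNF4 and TGTTTAC, the core that FOXA factors read. They occur in 12.9% and 3.21% of 33469 RefSeq promoter windows. Of the 28 genes higher in C5F, 18 had a window in the table: CAAAGT was in 3 (Apoc2, Apom and Gc) and TGTTTAC in 0. Of the 27 lower genes, 23 had a window, of which 4 and 0 held these motifs. The windows of Serpina1, Apoe and Gpc3 held neither. Such matches are letters in a window and describe no binding.

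Apolipoproteins were the group with most members set apart. Of 10 compared, 6 were at least 4-fold above all other lines in C5F (60%, beside 0.606% of all genes), none was lower, and C5F was the highest line in 8. Apoe, the ligand that carries lipoprotein remnants into cells, had a signal of 12.11 in liver and 10.39 in C5F and was near background in C6, N1 and L2 at 2.44, 1.53 and 2.48. C5F was at least 103-fold above the other lines and 3.29-fold below liver (limma 8.24 ± 0.52, adjusted p 0.0564). A separate Apoe probe gave 9.66 in liver and 9.29 in C5F, with the other lines near background, and at least 47.9-fold between them.

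Apoa1, the main protein of high density lipoprotein, was at 10.02 in C5F and at the floor in all 3 other lines, at least 79.8-fold apart, with no usable liver spot. Apoc2, the cofactor of lipoprotein lipase, had 10.35 in C5F against 5.15, 4.68 and 5.13 in C6, N1 and L2, a gap of 36.7-fold. Apom, which carries sphingosine-1-phosphate, had 8.66 in C5F against 4.09, 4.27 and 4.103 in C6, N1 and L2, beside 11.33 in liver, so that C5F was 21.0-fold above N1 and 6.38-fold below liver. In Apoc2 and Apom the 3 other lines, all above background, lay close together. For Apoa1 the floor makes them equal. That C5F stood above them follows from how the genes were chosen.

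Apoc1 and Apoa2 completed the 6. Apoc1 was at 6.76 in C5F and near background in the other lines, at least 8.30-fold below it. Apoa2 was at 6.64 in C5F and between 4.07 and 4.34 in the others, 4.93-fold below it. Apoe and Apoc1 are direct neighbours in the RefSeq table, and Apoc2 lies beyond them with 1 coding gene between it and Apoc1. Apoc4, directly beside Apoc2, did not follow the 4-fold pattern: it had 8.35 in C5F against 6.88, 6.98 and 7.88 in C6, N1 and L2, beside 11.10 in liver. Apoc3, the direct neighbour of Apoa1, was above background in C5F alone at 4.63, which is at least 1.89-fold above the other lines, and the liver at 11.63 was 128-fold brighter. Apob, the structural protein of very low density lipoprotein, was 3.85 in C5F and between 3.91 and 4.59 in the other lines. Mttp, which loads lipid onto it, was near background in all 4 lines.

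**Figure D2:**
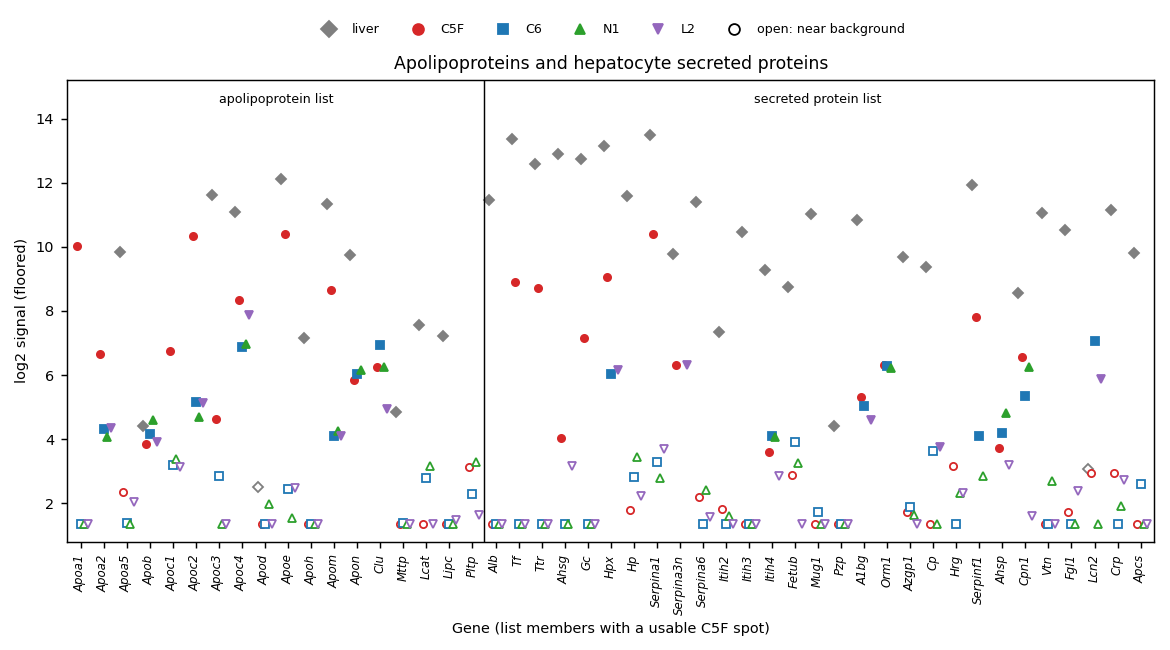
Log2 signal (vertical axis) on the 5 arrays for the members of the apolipoprotein list (left of the vertical rule) and of the secreted protein list (right) with a usable C5F spot; filled symbols are above background and open symbols near background. C5F (red circles) sits between liver (grey diamonds) and the other lines for Apoe, Apom, Tf, Ttr, Gc and Serpina1, and near background with the other lines for Alb, Hp and Apoa5.

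Among the secreted carriers and inhibitors, 4 of 10 compared members passed 4-fold in C5F, beside 0.606% of all genes, and none was lower. Serpina1, alpha-1-antitrypsin, had 13.48 in liver and 10.40 in C5F and was near background in C6, N1 and L2 at 3.30, 2.80 and 3.68. C5F was at least 104-fold above the other lines and 8.45-fold below liver (limma 7.14 ± 0.45, adjusted p 0.0564). Tf, the iron carrier transferrin, had 13.36 in liver and 8.90 in C5F, and Ttr, the thyroid hormone and retinol carrier transthyretin, had 12.59 and 8.71. Both were at the floor in C6, N1 and L2, at least 36.6-fold and 32.1-fold below C5F (limma adjusted p 0.0541 for each).

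Gc, the vitamin D binding protein, had 12.75 in liver and 7.15 in C5F and was at the floor in the other lines, at least 10.9-fold below C5F. In all 4 of these genes liver was brighter than C5F, from 8.45-fold for Serpina1 to 48.4-fold for Gc. Ahsg, the plasma glycoprotein fetuin-A, was above background in C5F but not in the other lines, and only just: 4.04 in C5F, the floor in C6 and N1 and 3.17 in L2, with 12.89 in liver. Hp, the hemoglobin binder haptoglobin, was at 11.60 in liver and near background in all 4 lines, and 15 of the 31 members with a probe were above background in no line. In C5F, 13 of its 30 usable members were above background, against 27 of 28 in liver and 8 of 30, 4 of 28 and 5 of 29 in C6, N1 and L2.

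4 further genes for secreted proteins, in no list, followed the same order. Spp2, a phosphoprotein that binds bone growth factors, had 11.45 in liver, 7.97 in C5F and the floor elsewhere, at least 19.2-fold. Selenop, the selenium carrier of plasma, had 9.61 in liver, 6.99 in C5F and values near background from 2.07 to 3.64 in the others, at least 9.72-fold. Cpb2, a carboxypeptidase that slows fibrinolysis, had 10.90 and 6.96, at least 9.52-fold above the others. Serpina10, an inhibitor of clotting factor Xa, had 10.03 and 6.51, at least 6.99-fold above the others. In the RefSeq table Serpina10 lies next to Serpina6, the cortisol binding globulin, which was near background in C5F, with 5 genes between Serpina10 and Serpina1.

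The clotting and complement lists had no member past 4-fold in either direction among 5 compared in each. Over all genes 0.606% were higher and 0.585% lower, so few or none would be found in lists of this size. Fgg, the gamma chain of fibrinogen, was at 4.86 in C5F and near background in the other lines, at least 2.23-fold below. F2, prothrombin, had 11.67 in liver, 8.61 in C5F and the floor in L2, and could not be compared since C6 and N1 had no usable spot. F10 was at 10.85 in liver and near background in all 4 lines. C3, the central complement protein, had 6.70 in liver, 4.41 in C5F, 3.86 in C6, and was near background in N1 and L2.

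Of 16 compared members of the growth factor list 1 passed 4-fold, beside 0.606% of all genes higher. This was Igfbp1, the insulin-like growth factor binding protein of liver. It had 10.88 in C5F, 4.71 in C6 and the floor in N1 and L2, with no usable liver spot, and C5F was 71.7-fold above C6. The limma difference was 8.41 ± 1.72 with an adjusted p of 0.282, and C6 lay well above N1 and L2. Of 12 compared bile list members 1 passed 4-fold, beside the same share of all genes. This was Slc27a2, an enzyme that activates very long chain fatty acids and bile acids. It had 11.27 in liver, 7.002 in C5F, 3.85 in C6, 3.78 in L2 and a value near background in N1. Slc38a3, a glutamine transporter of hepatocytes, had 8.24 in liver and 5.80 in C5F, at least 4.26-fold above the others.

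No compared member passed 4-fold higher in C5F in the lists for amino acid and urea metabolism (15 compared), lipid metabolism (13), glucose metabolism (4) and cytochromes and conjugation (20), where the share over all genes was 0.606%, so that few or none would be found in lists of this size. Cps1, which makes carbamoyl phosphate for urea, had 8.98 in liver and was near background in all 4 lines. Slc10a1, the bile acid importer, had 5.33 in C5F against 5.73, 5.39 and 5.26 in C6, N1 and L2, beside 7.33 in liver. Fmo1, a flavin monooxygenase, came nearest among the detoxification genes, with 8.40 in liver, 5.50 in C5F and values near background in the others, at least 3.28-fold.

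Of the transcription factors that drive hepatic genes, 0 of 14 compared members passed 4-fold, beside 0.606% of all genes higher and 0.585% lower. At these shares few or none would be found in a list of this size. The median member was 0.37 above the middle other line. Hnf4a had 5.41 in C5F against 5.13, 4.96 and 4.50 in C6, N1 and L2, beside 7.07 in liver, so C5F was 1.22-fold above C6, and the limma difference was 0.55 ± 0.36 with an adjusted p of 0.836. Foxa1 had 6.05 in liver and was near background in all 4 lines. Cebpa was called above background in C5F alone, at 3.79, but N1 had a higher signal of 3.998 that was called near background. Calls are made spot by spot, and this signal lay above the N1 detection limit of 3.70. Hhex, Klf15 and Nr1i2 were likewise above background in C5F alone, at 4.93, 4.57 and 3.55. C5F was at least 2.34-fold above the others for Hhex and 1.82-fold for Klf15, while the Nr1i2 signal lay below the detection limit of the N1 array, 3.70 on the log2 scale, and gives no fold. Nr1h4, the bile acid receptor, was at the floor in C5F and L2, with 4.0009 in C6, 3.94 in N1 and 8.92 in liver.

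The other genes higher in C5F were not all liver genes. Lcp1, the actin bundler L-plastin of white blood cells, had 7.95 in liver, 8.66 in C5F, and was near background in C6, N1 and L2, at least 30.8-fold apart, and a separate probe gave at least 6.12-fold. Alox5, the lipoxygenase that starts leukotriene synthesis, was at 5.71 in C5F and near background on the 4 other arrays, at least 4.01-fold. Fgl2, a prothrombinase also made by macrophages and endothelium, had 7.74 in liver and 6.74 in C5F, at least 8.18-fold above the others. Defining markers of white blood cells were near background in C5F: Ptprc, Cd3d and Nkg7 of the lymphocyte list, and Csf1r, Cd68, C1qa, C1qb and C1qc of the Kupffer cell list. Ptprc was near background in liver too. Of 6 Kupffer cell markers usable on all arrays, 6 were above background in liver and 2 in each line, and their summed signal was 4418 in liver, 60.8 in C5F and between 57.7 and 86.1 in the other lines. The 2 above background in C5F were Cd163 at 3.87 and Clec4f at 4.65. In the liver sample, a tissue, fewer cells of a type and less RNA per cell cannot be told apart.

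Plxdc2, a plexin domain surface protein, had 7.65 in C5F and was near background on all other arrays, at least 15.4-fold above the other lines. Tafa5, a small secreted protein best known from brain, had 8.16 in C5F, 4.40 in C6 and values near background in liver, N1 and L2, so C5F was 13.5-fold above C6. Sec22b, which acts in transport between the endoplasmic reticulum and the Golgi apparatus, had 9.41 in C5F against 6.99, 7.09 and 6.71 in C6, N1 and L2, beside 7.08 in liver, and was 4.98-fold above N1. For these 3 and for Afp, Gpc3, Lcp1 and Alox5, C5F was also brighter than liver. Maob, the amine oxidase of mitochondria, had 6.92 in liver and 6.56 in C5F, at least 7.21-fold above the others, and Cd302, a lectin receptor, had 9.45 and 5.94, at least 4.71-fold.

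**Figure D3:**
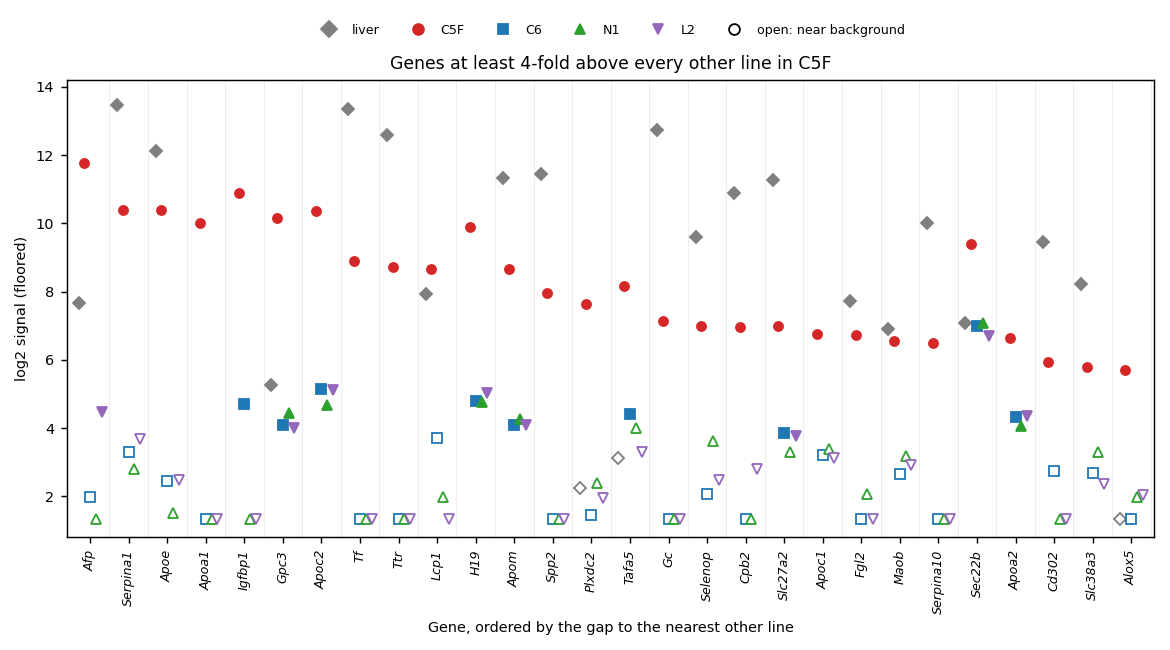
Log2 signal (vertical axis) on the 5 arrays for the 28 genes at least 4-fold higher in C5F, ordered by their gap to the nearest other line; filled symbols are above background, open symbols near background, and a missing diamond means that the liver spot was not usable. C5F (red circles) lies above C6, N1 and L2 in every column because of how the genes were chosen, and below liver for most of those with a liver value.

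Liver values did not enter the 4-fold rule, but they entered the mean signal by which a gene's probe was picked. They were usable for 22 of the 28 genes and above background in 19, or 86.4%, against 61.2% of all genes compared. The 28 are bright in C5F by choice, while all genes compared include dim ones, so the sets differ in brightness. The 27 lower genes had 85.7%. Of the 22, liver was at least 4-fold brighter than C5F in 12. C5F was at least 4-fold brighter than liver in 5, which were Afp, Gpc3, Plxdc2, Tafa5 and Sec22b. By a second Gpc3 probe liver was the brighter, at 4.62 against a spot near background in C5F. Liver was brighter than all 3 other lines in 18 of the 22. Of the 4019 compared genes usable in liver, liver was at least 4-fold brighter than C5F in 292. Among these 4019, C5F was at least 4-fold brighter than liver in 165, and liver was above all 3 other lines in 961. The 28 were chosen dimmer in the other lines, so the count of 18 follows in part from the choice. In 18 of the 28 genes all 3 other lines were near background, so their folds are lower limits.

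The share of liver genes that a line kept was compared over the 4 lines. For each line, the genes at least 4-fold brighter in liver than in all 3 remaining lines were taken. This leaves the line itself out of the 4-fold choice, though not out of the mean signal that picked the probe. C5F had 161 of 407 such genes above background, or 39.6%. C6 had 24.8% of 399, N1 24.6% of 414 and L2 22.5% of 396. At 1 signal level set for all arrays, 14.6, which is the detection limit of the liver array, the share was 32.2% in C5F against 22.8%, 24.9% and 20.5% in C6, N1 and L2. C5F thus led in both counts, and its lead over the next line narrowed with 1 signal level in place of the calls. More genes of any kind were also above background in C5F: 62.4% of usable named genes against 56.1% to 57.6% in the other lines. At the 1 signal level, genes present in 1 line only numbered 217 in C5F and 136, 186 and 155 in C6, N1 and L2. Of those usable in liver, 36.6% were present there for C5F and 34.1%, 33.5% and 31.1% for the others. How far this makes the lead was not tested. The 4 sets of liver genes overlap, each line has 1 array, and no test was made.

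Few of these genes were near their level in liver. In C5F, 23 of the 407, or 5.65%, were within 4-fold of liver or above it, against 15, 18 and 12 in C6, N1 and L2. With the authors' normalized intensities the C5F share was 2.62%, or 10 of 382. The 23 included Afp and Lcp1, the only ones brighter than liver, and Apoe, Fgl2 and Maob. They also included Gbe1, the branching enzyme of glycogen, Dcxr, a xylulose reductase, Klf15, a regulator of fasting metabolism, and Cpn1, a carboxypeptidase of plasma. The correlation with liver across genes is a description, since genes are not independent replicates. It was taken over 4418 genes usable in all 5 arrays and above background on at least 1, liver included. The correlation was 0.550 for C5F and 0.528 to 0.536 for the other lines. Between lines, over the 4618 genes compared, it was 0.878, 0.862 and 0.826 for C5F with C6, N1 and L2, and 0.868 to 0.891 among the other 3.

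**Figure D4:**
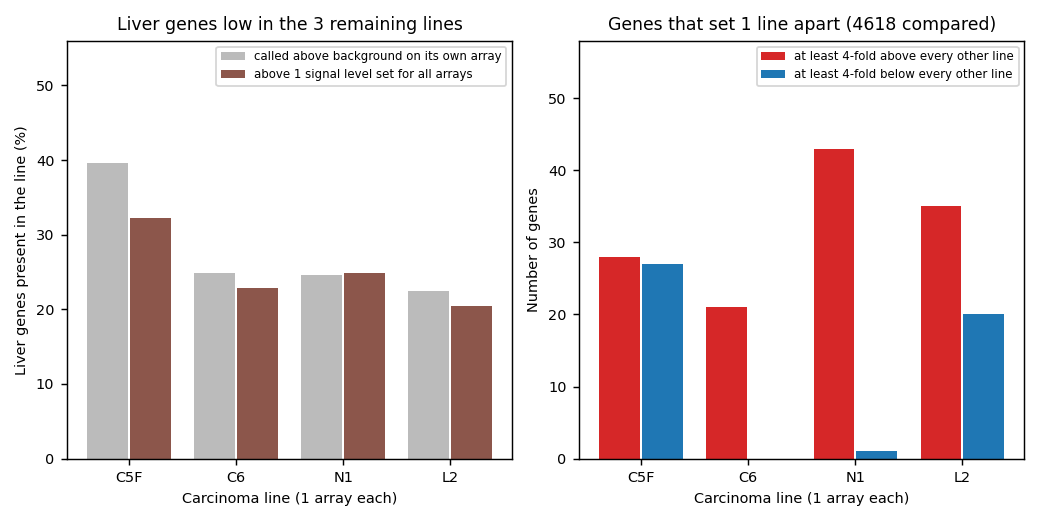
Left, share of liver genes (those at least 4-fold brighter in liver than in the 3 remaining lines) present in each line, in percent, by the call of its own array (grey) and above 1 signal level for all arrays (brown). Right, number of genes at least 4-fold above (red) or below (blue) all other lines, of 4618; bars are single arrays without error, C5F has the tallest bars on the left at 39.6% and 32.2%, and its 27 genes below are the most by the 4-fold rule, though not by counts of genes near background in 1 line only.

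The genes that C5F lacked were led by Sema3c and Tmsb4x. Sema3c, a secreted guidance cue for migrating cells, had 8.60 in C6, 8.33 in N1 and 8.51 in L2 and was near background in C5F at 1.74 and in liver at 3.86. It was at least 41.0-fold lower in C5F, with a limma difference of -6.74 ± 0.25 and an adjusted p of 0.0541. The 3 other lines were nearly equal, and a second probe of the gene was near background in every line. Tmsb4x, thymosin beta 4, which binds free actin, had 10.37 in liver, 7.67 in C6, 11.62 in N1 and 8.12 in L2 and was near background in C5F at 2.38, at least 25.8-fold lower than C6. Its limma difference was -6.75 ± 1.90 with an adjusted p of 0.478, and N1 lay well above C6 and L2.

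Cavin3, a coat protein of caveolae, had 4.91 in C5F against 8.46, 8.74 and 9.0015 in C6, N1 and L2, beside 9.15 in liver, and C5F was 11.7-fold below C6. Vim, the intermediate filament vimentin, had 6.24 in C5F against 9.01, 10.13 and 9.11 in C6, N1 and L2, 6.83-fold below C6, with no usable liver spot. Over all genes 0.585% were lower and 0.606% higher. Of 18 compared members in the motility list 2 were lower (Cavin3 and Tmsb4x) and 1 higher (Lcp1). Of 18 in the mesenchymal list 1 was lower (Vim) and 0 higher. Medians were 0.57 and 0.34 below the middle other line, against 0.03 above it for all genes. Snai2 and Zeb2, repressors of epithelial genes, were called above background in C5F alone, at 3.46 and 3.57, both below the detection limit of the N1 array at 3.70, so no fold is given.

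Anxa1, annexin A1, a membrane binder that limits inflammation, had 6.98 in C5F against 10.15, 11.04 and 10.88 in C6, N1 and L2, beside 6.09 in liver. C5F was 9.03-fold below C6 and within 1.86-fold of liver (limma -3.71 ± 0.47, adjusted p 0.109). It was the 1 of 14 compared annexin and S100 genes past 4-fold, beside 0.585% of all genes lower. S100a4, a calcium sensor tied to cell motility, had 9.76 in C5F against 11.79, 13.13 and 11.46 in C6, N1 and L2, beside 6.90 in liver, and was lowest of the lines in C5F by 3.25-fold, short of the threshold. Anxa2 and Anxa5 lay within the range of the other lines, at 4.82 and 9.21 in C5F. Lgals1 and Cd44 had no usable C5F spot.

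In the list of surface proteins 1 of 17 compared members was lower (Itga3) and 0 higher, beside 0.585% and 0.606% of all genes. Of the genes below all lines, Itga3 and some that are in no list act at or outside the cell surface. Htra1, a secreted protease, had 4.24 in C5F against 10.66, 8.76 and 10.95 in C6, N1 and L2, beside 8.33 in liver, and C5F was 22.9-fold below N1. Itga3, an integrin receptor for laminin, had 5.55 in C5F and 8.24 to 8.9997 in the other lines, 6.44-fold lower. F2r, the thrombin receptor, had 6.84 against 9.59 to 10.27, 6.72-fold lower, but only 1.28-fold lower by a further probe above background in all 4 lines. Psca, a lipid-anchored surface antigen, had 5.22 against 8.39 to 9.43, 8.998-fold lower. Dpp4, a surface peptidase of hepatocytes, had 8.58 in liver, and was near background in C5F at 3.04 and between 5.27 and 6.63 in the other lines, at least 4.69-fold lower. Of the epithelial junction list, 0 of 17 compared members passed 4-fold, where few or none would be found at the shares over all genes. Cdh1, E-cadherin, had 6.89 in C5F against 8.17 and 6.72 in C6 and N1, a value near background in L2 and 8.76 in liver.

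Of 19 compared aldehyde and ketone metabolising enzymes 1 was lower (Aldh3a1), and of 20 cytochromes and conjugation enzymes 1 was lower (Gstm4). Over all genes 0.585% were lower. Aldh3a1, an aldehyde dehydrogenase induced in rat liver tumours, was near background in C5F at 1.67 and in liver at 1.81, with 5.97 in C6, 10.12 in N1 and 10.15 in L2, so C5F was at least 7.99-fold below C6. N1 and L2 were far above C6, and the limma adjusted p was 0.512. Gstm4, a glutathione transferase, had 7.66 in liver, 3.73 in C5F and 6.98 to 7.65 in the other lines, 9.51-fold lower. Ptgs1, the constitutive cyclooxygenase, had 8.72 in liver, 8.27 in C5F and 10.95 to 12.17 in the others, 6.39-fold lower. The NRF2 target list had 0 of 18 compared members past 4-fold, beside 0.606% of all genes higher and 0.585% lower. C5F was the lowest line in 8 of them, and the median member was 0.62 below the middle other line.

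Ube2l6, Plscr1 and Ifi44, picked from the 27 after their values were seen, are known to respond to interferon. Ube2l6, which loads the ubiquitin-like ISG15, had 8.08 in liver and 6.28 to 7.70 in the other lines and was at the floor in C5F, at least 9.89-fold lower. Plscr1, a phospholipid scramblase induced by interferon, had 4.28 in liver and 6.34 to 6.84 in the other lines and was near background in C5F, at least 10.3-fold lower. Ifi44 had 7.48 in liver and 5.02 to 5.81 in the other lines and was at the floor in C5F, at least 4.11-fold lower. In the list of antigen presentation and interferon genes, which holds none of these 3, 0 of 7 compared members passed 4-fold. Over all genes 0.606% were higher and 0.585% lower. C5F was the lowest line in 1 of the 7. Tap1, the peptide transporter of antigen presentation, was near background in C5F alone, at 3.45, with 5.32 in C6, 4.50 in N1 and 4.22 in L2. Oasl, also in this list, was near background in C5F and above background in every other line with a usable spot. Il33, an alarm cytokine, had 5.55 in C5F and 8.19 to 9.40 in the other lines, 6.25-fold lower.

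**Figure D5:**
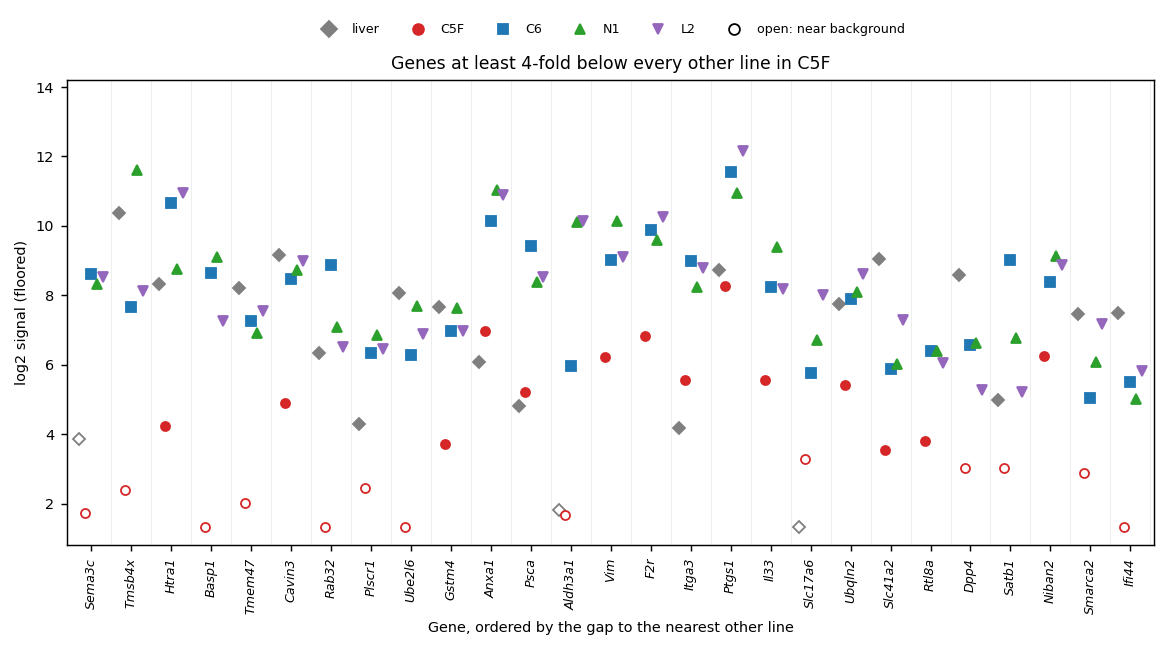
Log2 signal (vertical axis) on the 5 arrays for the 27 genes at least 4-fold lower in C5F, ordered by their gap to the nearest other line; filled symbols are above background, open symbols near background, and a missing diamond means that the liver spot was not usable. C5F (red circles) lies below the other lines by choice of the genes and is near background in 13 of them, while liver lies both above and below the other lines.

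The remaining lower genes served varied roles. Basp1, a membrane protein of growth cones, was at the floor in C5F and 7.25 to 9.09 in the others, at least 19.4-fold lower, and Tmem47, a junction protein, was at least 15.4-fold lower with 8.22 in liver. Rab32, a small GTPase of organelle traffic, was at least 11.5-fold lower. The chromatin proteins Satb1 and Smarca2 were near background in C5F and at least 4.55-fold and 4.23-fold lower. Slc41a2, Slc17a6, Ubqln2, Rtl8a and Niban2 were between 4.37-fold and 5.53-fold lower. Liver was usable for 21 of the 27 and above background in 18, or 85.7%, a share close to that of the 28 higher genes. Liver was at least 4-fold brighter than C5F in 12 and at least 4-fold dimmer in 0, and was dimmer than all 3 other lines in 12 of the 21. Over the 4019 compared genes usable in liver, the same counts were 292, 165 and 1750. The 27 were chosen dim in C5F and brighter in the other lines, so their counts follow in part from the choice.

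The proliferation list had 0 of 20 compared members past 4-fold, beside 0.606% of all genes higher and 0.585% lower, with a median of 0.08. Of markers of other liver cells with a usable spot in C5F, 2 of 7 stellate, 2 of 5 cholangiocyte, 2 of 6 endothelial and 0 of 3 lymphocyte markers were above background there. The stellate pair were the collagen genes Col1a1, at 7.10 in C5F, 7.56 in liver and 7.49 in N1, and Col1a2, at 7.07 in C5F and 7.12 in L2. The summed signal of the 5 endothelial markers usable on all arrays was 25.9 in C5F against 519.7 in liver. The summed signal of 6 hepatocyte markers was 933 in C5F against 31.3, 36.7 and 34.2 in C6, N1 and L2 and 27630 in liver, and 4 of the 6 were above background in C5F against 1 in each other line. These 6 share genes with the 28, so the sum follows from them in part. The cholangiocyte pair were Krt19 and Epcam. The bile duct keratin Krt19 had 11.11 in C5F, 10.43 in C6 and 9.14 in L2, with no usable spot in liver or N1. Epcam, an adhesion molecule of progenitor and duct cells, had 5.61 in liver, 6.21 in C5F and a value near background in L2.

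Other probes of the same genes gave a partial second reading. For the 28 higher genes, 9 further probes of 8 genes were usable, and 4 had a line above background. All 4 had C5F as the highest line, at least 47.9-fold for Apoe, 6.12-fold for Lcp1, 2.44-fold for Afp and 1.69-fold for Fgl2. The second Gpc3 probe was near background in all 4 lines, at 1.51 in C5F, but above background in liver at 4.62. The Gpc3 result therefore rests on 1 probe, and against liver the second probe went the other way. The further Fgl2 probe also reversed liver and C5F, with 4.46 in C5F and liver at the floor. The further probes of Plxdc2, Alox5 and Slc27a2 were near background in all 4 lines. For the 27 lower genes, 11 further probes of 9 genes were usable. Of the 7 with a line above background, 6 had their lowest signal in C5F. The gap was at least 4.33-fold in Slc17a6, 3.12-fold in Slc41a2 and 2.75-fold in Dpp4, it was 1.28-fold in F2r, and Il33 and Smarca2 gave no fold because another line was near background too. For Niban2 the other probe went the opposite way, with C5F the highest line by 1.42-fold.

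The genes just inside the 4-fold threshold were Slc38a3 (at least 4.26-fold) and Alox5 (at least 4.01-fold) on the higher side and Smarca2 (at least 4.23-fold) and Ifi44 (at least 4.11-fold) on the lower. Just outside were Smlr1 (at least 3.82-fold) and Rnf125 (at least 3.80-fold) on the higher side and Spsb2 (3.995-fold) and Tmx4 (3.56-fold) on the lower.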

How the data were processed

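Total RNA from 1 liver and 4 carcinoma lines was labelled and hybridised to 1-colour CodeLink arrays, 1 array per sample, per the labels' protocols. The deposited scanner tables, made with CodeLink Expression Analysis 4.1.0.29054 per the file headers, hold a raw intensity and a quality flag per spot. The authors' normalized intensity is that raw intensity divided by the array's median, which was checked on the files, and the deposited value table equals it. Aligners and genome builds do not apply.

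The raw intensity of 33849 gene probes (1280 controls left out) was used where the flag was above or near background. Irregular, contaminated and masked spots were left out. Signals were quantile normalised over the 5 arrays, floored at 2.53, the median near-background signal, and put on the log2 scale. Of the probes 16753 had 1 gene symbol, 165 several and 16931 none. Symbols were updated through Entrez identifiers in the RefSeq table for GRCr8, which matched 16724. A gene was read from 1 probe, that with the highest mean signal over the 5 arrays. C5F was compared with the highest and the lowest other line at 4-fold. A spot near background was counted at the lowest signal called above background on its array, or at its own signal where higher. limma 3.58.1 in R 4.3.3 fitted C5F against the mean of the other lines, with 2 residual degrees of freedom and Benjamini-Hochberg adjustment. On simulated data over 9435 probes for this comparison, limma found 20.1% of the changes set at 2-fold, 99.8% at 4-fold and 100% at 16-fold. The 4-fold gap rule found 0.025%, 25.5% and 100%. In the simulation every probe had the same spread, no floor was applied and no spot was near background. The measured arrays differ in all of these, so the shares found do not carry over to them. Intensities carry no counts, so precision is limited by the number of arrays.

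The rule for named genes took the 15 widest gaps in each direction, up to 4 members of each list past 4-fold, and always Apoe, Afp, Gpc3, H19, Apom, Anxa1, Alb, Tf, Ttr, Serpina1, Igf2, Hnf4a, Cebpa, Foxa1, Krt19, Epcam, Tmsb4x, Vim, Cdh1 and Aldh3a1. An item of the rule is not reported here. Members, lists and rule were chosen with earlier results of these data known. Other genes past 4-fold, list members short of it, and the Alb, Apom and Gc promoters were added after their values were seen. RefSeq promoter windows were searched for the motifs given. Alternatives covered background, scaling, filter, floor, flag and threshold choices and leaving out each line.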

Additional observations from a re-analysis of the deposited data

How the results depend on the processing

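Alternatives covered the scaling between arrays, the quality calls, the probe for a gene, the floor, the threshold and leaving out each line. The 33 named genes past 4-fold were recomputed in 363 comparisons. Of these, 353 kept their side of the threshold, 10 fell short of it and 0 changed direction. All 10 were under an offset of 50: Basp1, Tmem47, Rab32, Plscr1, Ube2l6, Gstm4, Aldh3a1, Slc27a2, Gc and Itga3. Many of the 353 could not fall short. Leaving out a line, or placing near-background spots at the floor, can only widen such a gap. Preferring a probe usable in all 4 lines gave these genes the same gaps. Those comparisons are no measure of robustness. The list counts stayed within 1.5 times, at 3 to 6 secreted proteins, 4 to 6 apolipoproteins and 3 oncofetal genes. The count of genes higher in C5F, 28, was 15 with an offset of 50, 90 at 2-fold and 75 with near-background spots at the floor, and 31 to 41 with a line left out. The count lower, 27, was 9 with the offset, 85 at 2-fold, 12 at 8-fold, 54 with irregular spots kept, 45 with a usable spot asked of only 2 other lines (an alternative chosen after seeing the data), and 38 to 53 with a line left out. The limma calls, 0 higher and 0 lower, became 164 and 6 with median scaling, 17 and 1 with the offset, 1002 and 40 without the filter on dim probes, 6 and 1 with robust moderation, 166 and 6 with a trend, and 509 and 18 with a higher floor; it stayed at 0 and 0 with each of C6, N1 and L2 left out, where 1 residual degree of freedom remains. The liver genes above background in C5F, 161 of 407 (39.6%), were 278 of 590 (47.1%) with irregular spots, 78 of 210 (37.1%) with the offset and 326 of 684 (47.7%) at 2-fold. Those within 4-fold of liver, 23 (5.65%), were 10 of 382 (2.62%) with the authors' intensities, 49 (8.31%) with irregular spots, 8 (3.81%) with the offset and 35 of 535 (6.54%) with near-background spots at the floor. The causes were not tested. No paired analysis was possible because each line has 1 array and no number in the labels links arrays. Signals near background give bounds only.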

Other observations

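Some genes could not be compared over all 4 lines because 1 line had no usable spot. When a usable spot was asked of C5F and at least 2 other lines, a choice made after seeing the data, 6468 genes were compared, of which 33 were higher and 45 lower in C5F. Among the added higher genes were further plasma proteins. Hpx, hemopexin, which binds free heme, had 13.13 in liver, 9.07 in C5F, 6.03 in C6 and 6.16 in L2, while N1 was not usable, a gap of 7.50-fold. Serpinf1, pigment epithelium-derived factor, had 11.93 in liver, 7.81 in C5F, 4.11 in C6 and a value near background in N1, a gap of 12.96-fold. Vil1, villin, the actin bundler of microvilli, was not a liver signal: it was near background in liver at 1.38 and had 7.97 in C5F and 5.45 in C6. Among the added lower genes was Klf4, a transcription factor of differentiating epithelia, with 4.76 in liver, 3.89 in C5F, 8.43 in C6 and 7.11 in L2. Runx1, a factor of blood and epithelial progenitor cells, was near background in liver at 3.18 and had 4.43 in C5F, 6.97 in C6 and 7.16 in L2. Lsp1, an actin binder of white blood cells, had 8.48 in liver, 7.77 in N1 and 5.22 in L2 and was near background in C5F, which is the reverse of Lcp1.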
